A study of Mus musculus with 19 samples.

Results

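The TREM and CD300 receptors are immunoglobulin-superfamily receptors of myeloid cells. The 9 genes described here, Trem1, Trem2, Trem3, Treml2, Tyrobp, Cd300a, Cd300lb, Cd300ld and Cd300lf, were taken by name from the 33559 rows of a deposited bulk RNA-seq table, and each matched 1 row. The table held 5 libraries of mouse bone marrow monocytes, 2 without treatment (control replicates 1 and 2) and 3 with G-CSF (G-CSF replicates 1 to 3), all wild type per the labels. G-CSF is the cytokine that drives granulocyte production in the marrow. The dose, the strain, the age of the animals, how the monocytes were isolated, and whether G-CSF was given in vivo or in culture are not given in the sources used here. Another 14 samples, of skin, belong to the series and were not analysed here. Values are FPKM, fragments per kilobase of gene scaled to library depth, as deposited by the authors.

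Receptors of this kind work in opposing pairs. Activating members have short tails and signal through a partner that carries an immunoreceptor tyrosine-based activation motif (ITAM), mainly DAP12, the product of Tyrobp, or the Fc receptor gamma chain, the product of Fcer1g. Phosphorylated ITAMs recruit the kinase SYK. Inhibitory members carry their own inhibitory motifs (ITIMs), which recruit the phosphatases SHP-1 and SHP-2, encoded by Ptpn6 and Ptpn11. Trem1, Trem2, Trem3, Cd300lb and Cd300ld were grouped as activating receptors and Cd300a and Cd300lf as inhibitory ones. Tyrobp, an adaptor, was kept apart, as was Treml2, a TREM-like receptor whose signalling class is not settled.

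Of the 9 genes, Cd300ld alone had every treated library above both controls, by 3.20-fold between the means, and it did not pass the adjustment over all genes tested. The other 4 activating receptors, Treml2, Tyrobp and both inhibitory receptors overlapped between the groups. By limma on log2(FPKM + 1), with p-values adjusted by Benjamini-Hochberg over 16791 genes, 0 of the 9 were called higher and 0 lower at an adjusted p under 0.05, against 0.00596% of all genes called higher and 0% called lower. At an unadjusted p under 0.05, 1 of 9 was higher (7.9% of all genes) and 0 lower (4.76%). Without overlap between the groups, 1 of 9 was higher (20% of all genes) and 0 lower (11.9%). The shares of the 9 were therefore near those of the whole table. Positive log2 fold changes were found for 4 of the 9, against 56.3% of all genes, and the median was -0.02, beside 0.08 over all genes tested. All 9 passed the filter of at least 1 FPKM in at least 2 libraries, and each exceeded 1 FPKM in all 5 libraries.

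The 2 controls were unlike each other. Of the 9 genes, 7 had log2 fold changes of opposite sign when 1 control or the other stood alone; Trem1 and Cd300ld were positive against both. Control replicate 2 was the shallowest, with 2924038 reads worked back from its FPKM values, while the other 4 libraries held 5911204 to 6988763 such reads, which is the least depth they can have had. Despite its depth it had the most genes above 0 (29425, against 24361 to 26073). Its FPKM summed to 3299131, against 392646 in control replicate 1 and 586197 to 1577090 with G-CSF, so the deposited FPKM do not share a total. Over protein-coding genes alone the 5 sums lay between 182701 and 230125 FPKM. All 10 monocyte markers examined were detected in all 5 libraries, with Csf1r (the CSF-1 receptor) at 99.0 to 255 FPKM. Transcripts of neutrophils and B cells were present too: the 10 neutrophil markers summed to 1850 to 8938 FPKM without G-CSF and 3079 to 4978 FPKM with it, and the 6 B cell markers to 157 and 365 FPKM without and 96.6 to 131 FPKM with it. Of the 6 T and natural killer cell markers, 2 were under 1 FPKM in every library. Ncr1, a natural killer cell marker and 1 of these 2, was listed at 0 in 4 of the 5 libraries. Nkg7 measured 5.06 and 1.58 FPKM without G-CSF and 7.64, 11.7 and 7.90 FPKM with it. Trbc2 measured 2.18 and 1.67 FPKM without G-CSF and 0, 0.297 and 0.773 FPKM with it. In bulk RNA, fewer cells of a type and less RNA per cell cannot be told apart. Nothing in the labels ties a replicate to an animal or a culture of its own. The p-values given here therefore describe variation among these libraries, and it may be technical.

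**Figure D1:**
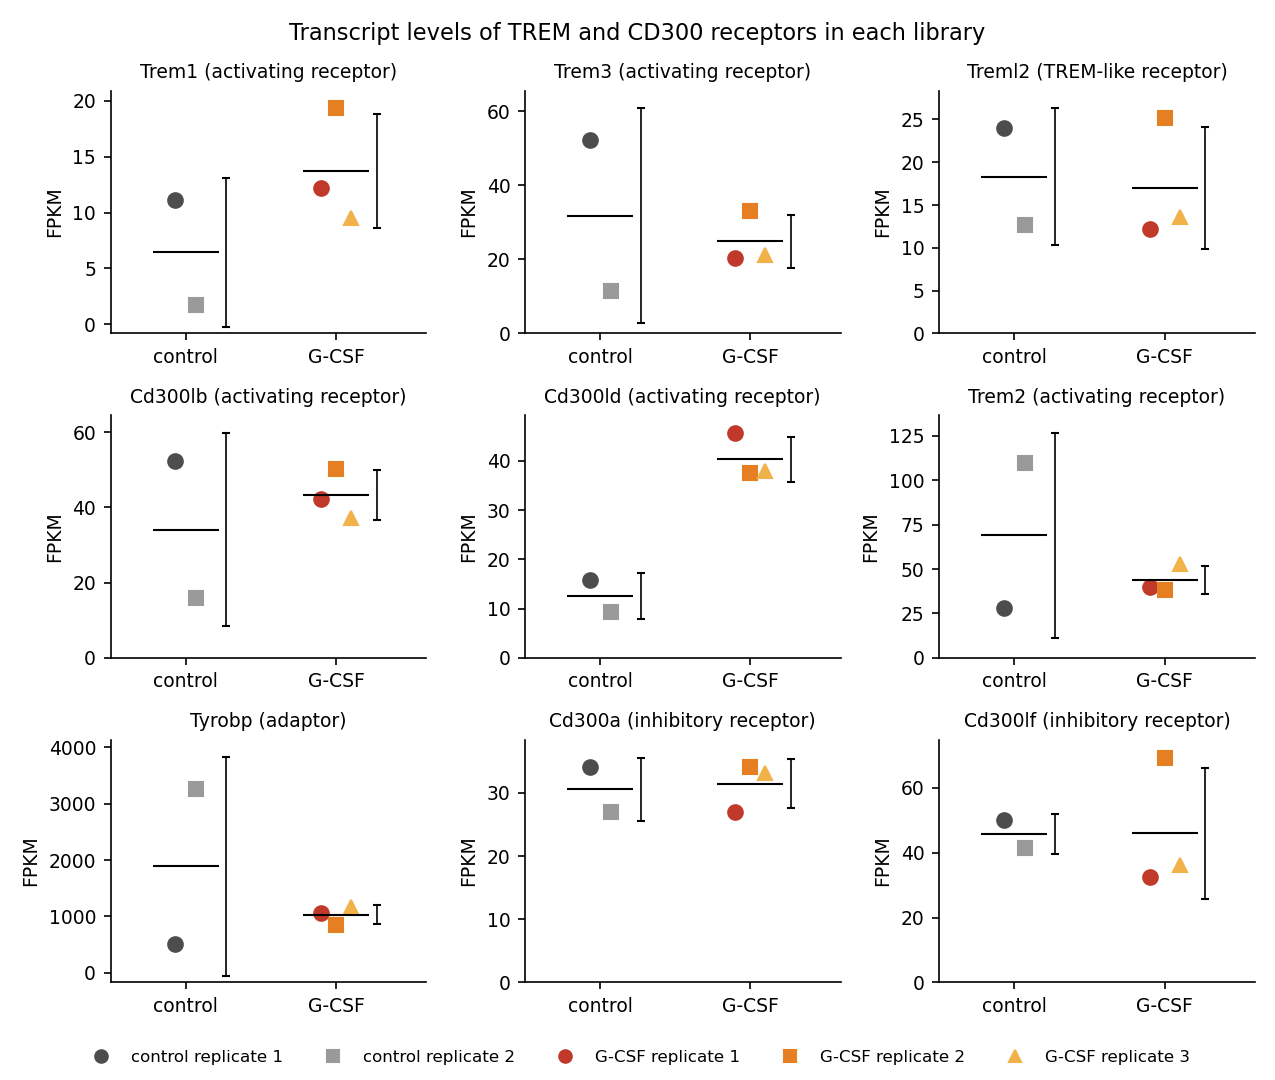
FPKM (linear axes from 0 or just below) of the 9 genes in each library; points are libraries, horizontal lines are group means and the bars beside them are 1 SD (2 control and 3 G-CSF libraries). Cd300ld is the panel in which all 3 G-CSF points, at 37.5 to 45.6 FPKM, lie above both controls, at 9.27 and 15.9 FPKM.

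Cd300ld encodes CLM-5, a mouse CD300 receptor that couples to the Fc receptor gamma chain. Its transcript measured 15.9 and 9.27 FPKM in control replicates 1 and 2 and 45.6, 37.5 and 37.9 FPKM in G-CSF replicates 1, 2 and 3. The lowest G-CSF library stood above the higher control, and the G-CSF libraries lay within 1.22-fold of each other. The means were 12.6 ± 4.69 FPKM (SD, n = 2) and 40.3 ± 4.61 FPKM (SD, n = 3), and the log2 fold change 1.64 ± 0.31 (SE, 95% interval 0.87 to 2.42; limma unadjusted p = 0.00214, adjusted p = 0.226). With 1 control left, the log2 fold change was 1.28 against control replicate 1 (limma adjusted p = 0.164) and 2.003 against control replicate 2 (limma adjusted p = 0.0113). Cd300ld occupies bases 114982274 to 114989922 of chromosome 11, minus strand, in GRCm38 (ENSMUSG00000034641.2). Of its 2596 transcript stretches of 50 bases, 3.89% also occurred in another TREM or CD300 gene, the larger share of them (3.66%) in Cd300lf.

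Most monocyte markers also lay higher with G-CSF. Of the 10, 7 were higher (20% of all genes) and 1 was lower (11.9%) without overlap. Their sums were 3744 and 1401 FPKM without G-CSF and 3089 to 5623 FPKM with it. Most of each sum was Lyz2 alone, at 3509 and 1232 FPKM without G-CSF and 2708 to 5147 FPKM with it. The sums therefore say little about the other markers. The ratio of Cd300ld to Csf1r, chosen after the values were seen, was 0.143 and 0.0936 without G-CSF and 0.193, 0.199 and 0.148 with it. That ratio kept the 2 groups apart by a narrow margin. Set against Ly6c2, an antigen of classical monocytes, Cd300ld gave ratios of 0.237 and 0.385 without G-CSF and 0.352 to 0.435 with it, so the groups overlapped. The part of monocyte content in the Cd300ld difference was not tested.

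Cd300ld lies in a cluster of CD300 genes, and the copies around it had like values. Cd300ld4 measured 25.6 and 16.3 FPKM in the controls and 74.1, 38.4 and 68.6 FPKM with G-CSF (log2 fold change 1.46 ± 0.40, SE; limma adjusted p = 0.298). Cd300ld5 measured 24.9 and 17.3 FPKM against 73.9, 37.5 and 61.8 FPKM, and Cd300ld3 12.4 and 8.46 FPKM against 36.6, 18.2 and 30.1 FPKM (both with a limma adjusted p of 0.303). In each of these 3 copies the groups did not overlap and G-CSF replicate 2 was the lowest of the treated libraries. These 3 genes are near-identical: 93.8% of the 50-base stretches of Cd300ld4, all of those of Cd300ld5 (100%) and 82.1% of those of Cd300ld3 recur in the family, so their reads could have been shared among them and they are not separate observations. Cd300c2, which encodes a further receptor of the cluster, measured 46.6 and 41.9 FPKM without G-CSF and 71.4, 59.2 and 77.7 FPKM with it (log2 fold change 0.63 ± 0.28, SE; limma adjusted p = 0.42).

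**Figure D2:**
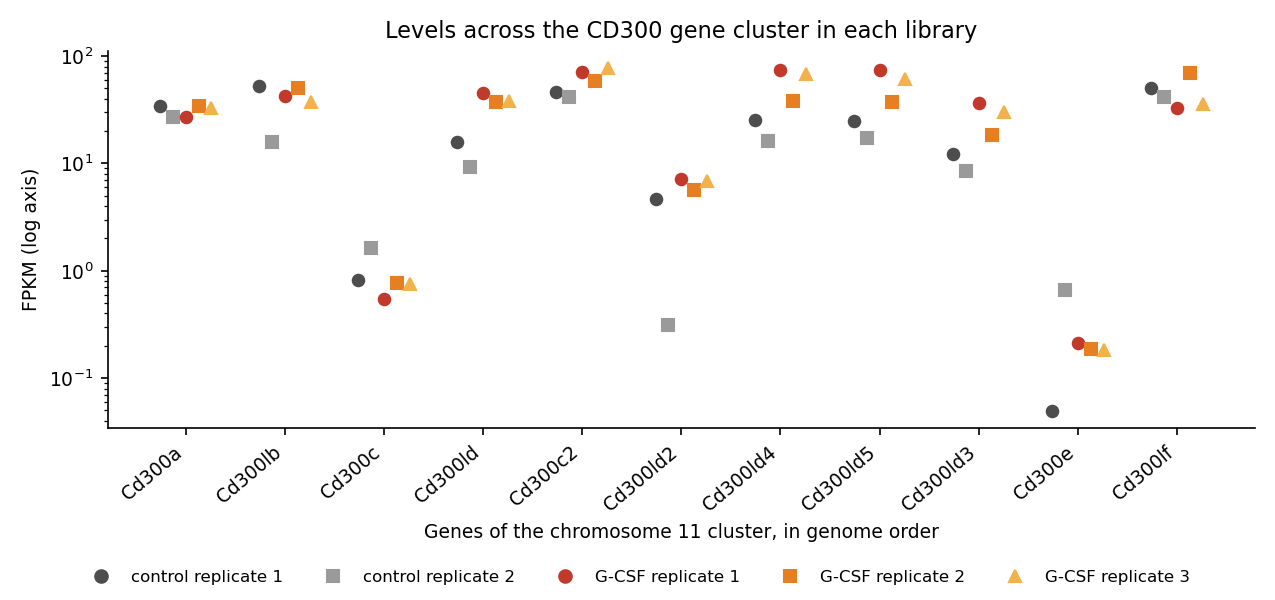
FPKM (log axis) of 11 CD300 genes of chromosome 11 in genome order; each point is 1 library. The G-CSF points lie above both controls for Cd300ld, Cd300c2, Cd300ld2, Cd300ld4, Cd300ld5 and Cd300ld3, while at the cluster's ends Cd300a, Cd300lb and Cd300lf overlap. Inside the cluster Cd300c lies the other way, at 0.812 and 1.63 FPKM in the controls and 0.549 to 0.777 FPKM with G-CSF, and Cd300e overlaps, both too low to be tested.

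Their promoters are shown because these copies lay apart between the groups while Cd300lf, in the same cluster, overlapped. RefSeq promoters (GRCm38.p6, 250 bases before to 50 after the annotated start) were at hand for 6 of the 9 genes. They are printed on the gene's strand, the minus strand, for Cd300ld (chr11:114989837-114990136), Cd300ld4 (chr11:115026884-115027183), Cd300ld3 (chr11:115048281-115048580) and Cd300lf (chr11:115133943-115134242). Capitals mark GAGGAAGT, a core bound by ETS factors such as PU.1, searched on both strands.
Cd300ld: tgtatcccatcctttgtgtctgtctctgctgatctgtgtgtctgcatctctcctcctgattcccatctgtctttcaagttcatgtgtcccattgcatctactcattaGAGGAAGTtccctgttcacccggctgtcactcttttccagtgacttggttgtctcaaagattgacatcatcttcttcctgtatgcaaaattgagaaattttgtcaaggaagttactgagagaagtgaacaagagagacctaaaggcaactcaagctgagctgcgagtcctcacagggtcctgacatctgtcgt
Cd300ld4: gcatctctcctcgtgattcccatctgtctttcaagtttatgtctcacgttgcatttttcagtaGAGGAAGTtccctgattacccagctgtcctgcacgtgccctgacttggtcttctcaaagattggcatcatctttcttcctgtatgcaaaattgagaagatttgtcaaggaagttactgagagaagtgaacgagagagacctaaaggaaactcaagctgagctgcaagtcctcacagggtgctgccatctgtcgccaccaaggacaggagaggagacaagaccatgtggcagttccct
Cd300ld3: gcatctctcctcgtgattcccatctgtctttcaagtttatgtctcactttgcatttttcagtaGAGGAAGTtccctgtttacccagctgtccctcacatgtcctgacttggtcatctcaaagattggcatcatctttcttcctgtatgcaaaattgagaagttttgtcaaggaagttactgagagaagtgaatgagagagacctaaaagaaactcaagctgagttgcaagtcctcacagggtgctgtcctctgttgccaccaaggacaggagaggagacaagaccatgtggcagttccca
Cd300lf: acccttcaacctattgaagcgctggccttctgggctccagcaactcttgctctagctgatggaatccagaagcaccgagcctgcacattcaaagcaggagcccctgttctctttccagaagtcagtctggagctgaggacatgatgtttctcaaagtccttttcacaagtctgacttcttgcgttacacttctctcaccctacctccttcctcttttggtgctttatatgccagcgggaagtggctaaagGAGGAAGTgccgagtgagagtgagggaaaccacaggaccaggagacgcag
The promoter of Cd300ld5 was identical to that of Cd300ld4. Over their aligned bases, those of Cd300ld and Cd300ld4 were 90.1% identical, and those of Cd300ld3 and Cd300ld4 95%. The core began at position -143 from the start in Cd300ld, at -187 in the 3 copies, and at the start itself in Cd300lf, whose groups overlapped. Of 32851 RefSeq promoters of this length, 3.2% hold it.

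Cd300lb encodes CLM-7, an activating receptor that pairs with DAP12. It measured 52.2 and 15.9 FPKM in control replicates 1 and 2 and 42.2, 50.3 and 37.1 FPKM in G-CSF replicates 1, 2 and 3. Control replicate 1 was the highest of all libraries and control replicate 2 the lowest. With all 5 libraries, the log2 fold change was 0.55 ± 0.52 (SE, 95% interval -0.73 to 1.83; limma adjusted p = 0.657). Against control replicate 1 alone it was -0.28, and against control replicate 2 alone 1.38 (limma adjusted p = 0.0212), so the direction depended on which control was used. Cd300lb occupies bases 114922781 to 114934386 of the same chromosome, minus strand.

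Both inhibitory CD300 receptors were at like levels in the 2 groups. Cd300a encodes a receptor for phosphatidylserine and phosphatidylethanolamine exposed on dying cells, and it lies on chromosome 11 from 114890041 to 114904654, plus strand. Its transcript varied least of the 9, at 34.1 and 27.03 FPKM without G-CSF and 27.03, 34.1 and 33.1 FPKM with it. The log2 fold change of Cd300a was 0.04 ± 0.27 (SE, 95% interval -0.63 to 0.71; limma adjusted p = 0.951), and its sign turned under quantile normalization, median centring and voom. Cd300lf encodes CLM-1, a receptor with ITIMs that murine norovirus uses for entry, and lies at 115116214 to 115133992, minus strand. It measured 49.96 and 41.3 FPKM in control replicates 1 and 2 and 32.6, 69.2 and 36.2 FPKM in G-CSF replicates 1, 2 and 3. G-CSF replicate 2 was the highest library and the other 2 treated libraries lay below both controls, for a change of -0.06 ± 0.40 on the log2 scale (SE, 95% interval -1.06 to 0.93; limma adjusted p = 0.95). These intervals leave room for changes in either direction.

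The activating receptors had a median log2 fold change of 0.55 (3 of 5 positive) and the inhibitory receptors -0.01 (1 of 2 positive). Within a library, the mean log2(FPKM + 1) of the activating receptors minus that of the inhibitory ones was -0.60 in control replicate 1 and -1.24 in control replicate 2. It was -0.05, -0.50 and -0.32 in G-CSF replicates 1, 2 and 3. Activating receptors were thus the lower class in all 5 libraries, and by less in each G-CSF library than in either control. Their mean includes Cd300ld, the only activating receptor whose groups did not overlap. How far the class difference rests on Cd300ld was not tested, so it cannot be read as a shift of the whole class. The difference between the group means was 0.63, 0.31 when control replicate 2 was left out and 0.96 when control replicate 1 was, beside an SD within groups of 0.323. Single pairs differed. The ratio of Cd300ld to Cd300lf was 0.318 and 0.225 in the controls and 1.4, 0.541 and 1.05 with G-CSF, whereas that of Cd300lb to Cd300lf was 1.05 and 0.386 in the controls and 1.29, 0.727 and 1.03 with G-CSF, so the groups overlapped.

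**Figure D3:**
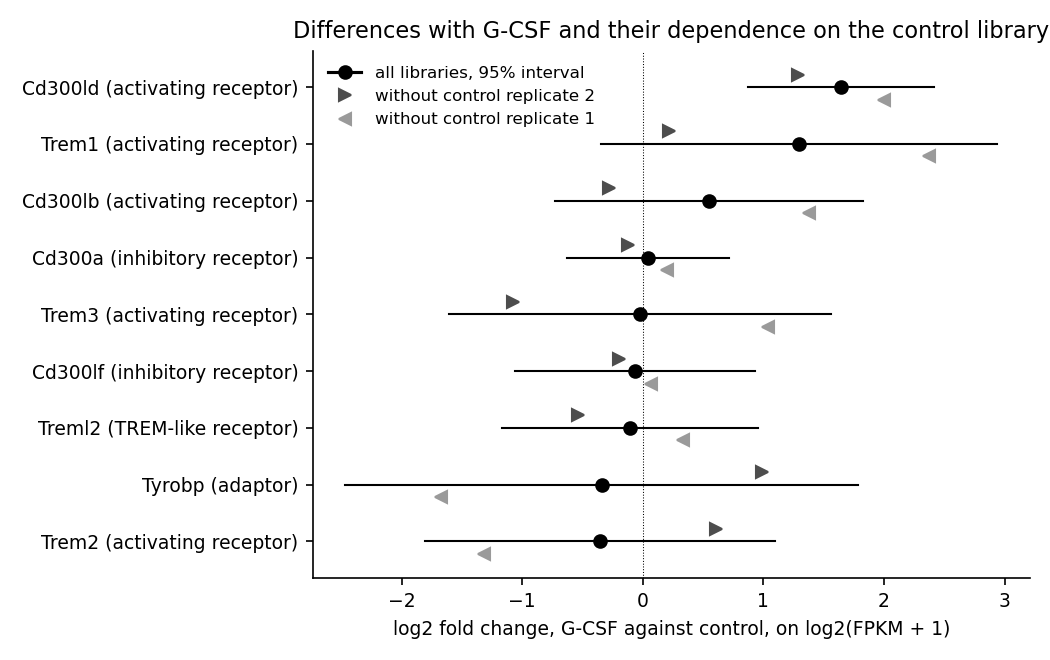
Log2 fold change of each gene, G-CSF against control, on the log2(FPKM + 1) scale; black points and lines are the estimate from all 5 libraries and its 95% interval, and triangles the estimate with 1 control left out. The interval of Cd300ld alone lies above 0, and the triangles of Trem1, Cd300lb, Trem3, Tyrobp and Trem2 lie over 1.5 apart.

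Trem1, an amplifier of inflammatory responses in neutrophils and monocytes that signals through DAP12, had the lowest level of the 9. It measured 11.1 FPKM in control replicate 1, 1.73 FPKM in control replicate 2 and 12.2, 19.4 and 9.55 FPKM in G-CSF replicates 1, 2 and 3. Control replicate 1 lay among the G-CSF libraries and control replicate 2 far below all of them. The value in control replicate 2 rested on 18 reads, with a 95% exact Poisson interval of 1.03 to 2.74 FPKM that covers counting error only. The log2 fold change was 1.296 ± 0.67 (SE, 95% interval -0.35 to 2.94; limma adjusted p = 0.456), 0.22 without control replicate 2 and 2.37 without control replicate 1 (limma adjusted p = 0.0196). Trem1 occupies bases 48232768 to 48246924 of chromosome 17, plus strand (ENSMUSG00000042265.13). Its RefSeq promoter (chr17:48232489-48232788, plus strand) is shown with TTCNNNGAA in capitals, searched on both strands. That is a motif of STAT factors such as STAT3, which the G-CSF receptor activates. It was not found in the other 5 promoters at hand, that of Cd300ld among them. Whether it bears on the level of Trem1, whose groups overlapped, was not tested.
Trem1: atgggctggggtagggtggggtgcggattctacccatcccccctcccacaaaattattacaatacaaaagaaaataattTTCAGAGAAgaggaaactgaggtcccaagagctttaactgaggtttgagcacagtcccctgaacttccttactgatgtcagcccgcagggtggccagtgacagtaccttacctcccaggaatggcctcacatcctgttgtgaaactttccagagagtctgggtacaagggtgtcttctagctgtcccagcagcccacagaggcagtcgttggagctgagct
The motif was found in 8.3% of all RefSeq promoters of this length. In all, 4 motifs were searched. The C/EBP motif TTGCNNAA was found in Trem2 (position 22) and Cd300a (-214), and in 10.8% of all promoters, and the AP-1 motif TGANTCA in Trem2 (-9), and in 7.81% of all.

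Trem3, a DAP12-coupled receptor of mouse macrophages and neighbour of Trem1 (chromosome 17, 48247777 to 48258841, plus strand), was unlike Trem1 in control replicate 1. It measured 52.3 and 11.3 FPKM in control replicates 1 and 2 and 20.4, 33.0 and 21.1 FPKM in G-CSF replicates 1, 2 and 3. The controls were the highest and the lowest of the 5 libraries, as for Cd300lb. With all 5 libraries, the log2 fold change was -0.02 ± 0.64 (SE, 95% interval -1.61 to 1.56; limma adjusted p = 0.988), -1.08 without control replicate 2 and 1.03 without the other control. The ratio of Trem3 to Trem1 was 4.7 and 6.53 in the controls and 1.68, 1.7 and 2.21 with G-CSF, so this pair was apart between the groups although neither gene was. The ratio was examined after the values were seen and was not tested.

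Treml2, found on neutrophils, macrophages and B cells, lies at 48299498 to 48312533 of chromosome 17, plus strand. It measured 23.95 and 12.7 FPKM in control replicates 1 and 2 and 12.2, 25.2 and 13.6 FPKM in G-CSF replicates 1, 2 and 3. Control replicate 1 and G-CSF replicate 2 were the high libraries, and the groups overlapped. With all 5 libraries, the log2 fold change was -0.10 ± 0.43 (SE, 95% interval -1.17 to 0.96; limma adjusted p = 0.927), -0.54 without control replicate 2 and 0.33 without control replicate 1.

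Within each group, marker sums of several other cell types ran beside these receptors, those of neutrophils among them. The first control was above the second 6.42-fold for Trem1, 4.62-fold for Trem3, 3.28-fold for Cd300lb and 1.89-fold for Treml2, and by 4.83-fold for the sum of the 10 neutrophil markers, none of which was at 0. Among the G-CSF libraries, replicate 2 was the highest for all 4 of these receptors and for that sum (4978 FPKM, against 3795 and 3079 FPKM in replicates 1 and 3). Both inhibitory receptors shared this order. The first control was above the second 1.26-fold for Cd300a and 1.21-fold for Cd300lf, and G-CSF replicate 2 was the highest treated library for both. Between the groups the match was partial. In control replicate 1 the neutrophil sum, at 8938 FPKM, lay above every G-CSF library. Trem3 and Cd300lb did so too, whereas Trem1 and Treml2 in control replicate 1 lay within the G-CSF range. Much of that sum was Ngp (3299 FPKM) and S100a8 (2177 FPKM). In the same library Cxcr2 (55.7 FPKM), Csf3r (204 FPKM) and Mmp8 (159 FPKM) were not above every G-CSF library, while the rest of the 10 were. Of the 10 neutrophil markers, 1 was higher (20% of all genes) and 1 lower (11.9%) without overlap. The sum of the 5 erythroid markers, too, was higher in control replicate 1 than in 2 and highest among treated libraries in G-CSF replicate 2. It was 436 and 109 FPKM in the controls and 30.8, 246 and 35.6 FPKM in G-CSF replicates 1, 2 and 3. The sum of the 6 B cell markers did likewise, at 365 and 157 FPKM in the controls. With G-CSF it was 96.6, 131 and 128 FPKM, the last 2 being close. Not every marker followed its sum. The neutrophil marker S100a8 was highest among treated libraries in G-CSF replicate 1, at 1303 FPKM. The erythroid marker Klf1 measured 0.140 and 0.188 FPKM in control replicates 1 and 2. The B cell marker Cd79a was highest among treated libraries in G-CSF replicate 3, at 29.9 FPKM. By Euclidean distance between mean-centred log2(FPKM + 1) over the 5 libraries, Cxcr2, a chemokine receptor of neutrophils, was the gene most like Trem1 (distance 0.315), followed by Fbxl5 (0.329) and Gvin3 (0.368). The ratio of Trem1 to Cxcr2 was 0.2 and 0.155 in the controls and 0.197, 0.163 and 0.179 with G-CSF, and thus overlapped. Cxcr2 was picked for its likeness to Trem1 in these same 5 libraries, so the steady ratio is no separate observation. The part of neutrophil, erythroid or B cell RNA in the levels of these receptors was not tested.

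**Figure D4:**
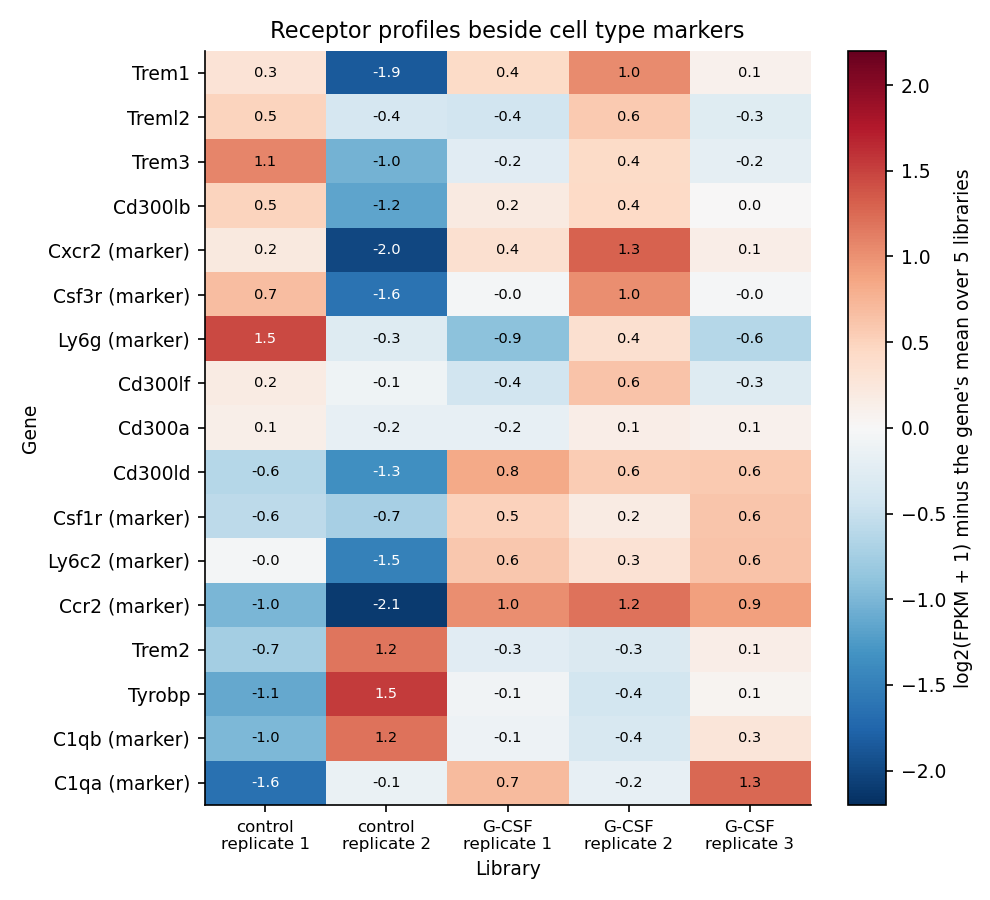
Log2(FPKM + 1) of each gene minus its mean over the 5 libraries (colour and number), with libraries as columns, for the 9 genes and 8 markers. Control replicate 2 is low for Trem1, Trem3, Cd300lb and the neutrophil markers Cxcr2 and Csf3r and high for Trem2, Tyrobp and C1qb. The other neutrophil and macrophage markers shown differ. Ly6g is not lowest there, at 15.6 FPKM against 9.88 and 12.2 FPKM in G-CSF replicates 1 and 3. C1qa is not highest there, at 112 FPKM against 203 and 300 FPKM in G-CSF replicates 1 and 3. Cd300ld is low in both controls, as are Csf1r and Ccr2.

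Trem2 and its adaptor ran the other way between the controls. Trem2, a lipid and lipoprotein receptor of macrophages, microglia and osteoclasts, measured 28.2 FPKM in control replicate 1, 109.7 FPKM in control replicate 2 and 40.2, 38.4 and 53.0 FPKM in G-CSF replicates 1, 2 and 3. All 3 G-CSF libraries lay between the controls. The log2 fold change was -0.36 ± 0.59 (SE, 95% interval -1.81 to 1.09; limma adjusted p = 0.804), 0.60 without control replicate 2 and -1.32 without control replicate 1 (limma adjusted p = 0.0274). Trem2 lies on chromosome 17, from 48346401 to 48354147, plus strand.

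Tyrobp, on chromosome 7 from 30413760 to 30417585 (plus strand), was the most abundant of the 9 in every library. It measured 514 FPKM in control replicate 1, 3260 FPKM in control replicate 2 and 1069, 848 and 1176 FPKM in G-CSF replicates 1, 2 and 3. As for Trem2, the controls were the lowest and the highest library. With all 5 libraries, the log2 fold change was -0.34 ± 0.86 (SE, 95% interval -2.47 to 1.78; limma adjusted p = 0.876), 0.99 without control replicate 2 and -1.67 without control replicate 1 (limma adjusted p = 0.042). The ratio of Trem2 to Tyrobp stayed between 0.0337 and 0.0549 in the 5 libraries.

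The macrophage complement gene C1qb had the same order in the controls, at 232 and 1045 FPKM, and measured 422, 358 and 553 FPKM with G-CSF. The 8 macrophage markers summed to 450 and 1375 FPKM without G-CSF and to 716 to 1209 FPKM with it. Without overlap, 2 of the 8 were higher (20% of all genes) and 0 lower (11.9%). Not all of them followed Tyrobp: Adgre1, which encodes the macrophage antigen F4/80, measured 70.6 and 33.7 FPKM in control replicates 1 and 2. Cd163 was under 1 FPKM in every library. The 3 genes most like Tyrobp by distance were Cenpb (0.131), Rtn4 (0.149) and Tmem51os1 (0.161), and those most like Cd300lf were Ggt5 (0.215), Adamtsl4 (0.232) and Ager (0.247). The part of macrophage RNA, or of the lower depth of control replicate 2, in the levels of Trem2 and Tyrobp was not tested.

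By mean FPKM the order with G-CSF was Tyrobp, Cd300lf, Trem2, Cd300lb, Cd300ld, Cd300a, Trem3, Treml2 and Trem1. Tyrobp stood apart from Cd300lf, at 848 FPKM or more against 69.2 FPKM or less, and Cd300ld from Cd300a, at 37.5 FPKM or more against 34.1 FPKM or less. The other neighbours overlapped. Without G-CSF the order was Tyrobp, Trem2, Cd300lf, Cd300lb, Trem3, Cd300a, Treml2, Cd300ld and Trem1, and neighbours were separate at 2 places, Tyrobp from Trem2 and Cd300a from Treml2. Cd300ld thus stood in place 8 without G-CSF and in place 5 with it.

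Of the other TREM and CD300 family genes, 10 passed the filter. None was called by limma after adjustment, while at an unadjusted p under 0.05 there were 3 higher and 1 lower, and 5 were higher and 1 lower without overlap (median log2 fold change 0.51). Over all genes the shares were 7.9% and 4.76% by p, and 20% and 11.9% without overlap. The 3 higher by p, which are also 3 of the 5 higher without overlap, were the near-identical Cd300ld3, Cd300ld4 and Cd300ld5, so these counts do not stand for separate genes. Treml1, a receptor of platelet granules and megakaryocytes, measured 12.1 and 57.8 FPKM in control replicates 1 and 2 and 9.87, 6.38 and 5.72 FPKM in G-CSF replicates 1, 2 and 3. Both controls were above all G-CSF libraries (log2 fold change -1.77 ± 0.65, SE; limma adjusted p = 0.372). Itga2b, a platelet integrin gene, was likewise at 33.8 and 75.6 FPKM without and 13.1 to 14.2 FPKM with G-CSF, whereas the 4 megakaryocyte markers summed to 267 and 735 FPKM without and 345 to 551 FPKM with it. Of these 4 markers 1 was lower without overlap, Gp1bb was under 0.2 FPKM in every library and at 0 in 3, and their part in Treml1 was not tested.

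The ITAM partners and their signalling genes were measured as a list of 18, all of which passed the filter. None was called by limma after adjustment, at an unadjusted p under 0.05 there were 3 higher and 0 lower, 7 were higher and 1 lower without overlap, and the median log2 fold change was 0.37. The shares over all genes, for this list and the next ones, are again 7.9% and 4.76% by p, and 20% and 11.9% without overlap. Fcer1g, the partner of the Cd300ld product, measured 178 and 131 FPKM in the controls and 387, 264 and 407 FPKM with G-CSF (log2 fold change 1.18 ± 0.40, SE; limma adjusted p = 0.352). Each G-CSF library thus held more Fcer1g than either control. The ratio of Tyrobp to Fcer1g was 2.88 in control replicate 1 and 2.76 to 3.22 with G-CSF, but 24.9 in control replicate 2. The SRC-family kinase gene Fgr had a log2 fold change of 1.12 ± 0.38 and the adaptor gene Pik3ap1 one of 0.60 ± 0.26 (SE; limma adjusted p = 0.352 and 0.411). Syk, the kinase that ITAMs recruit, measured 70.8 and 74.1 FPKM without G-CSF and 61.6, 69.8 and 66.1 FPKM with it. It was the 1 gene of the list lower without overlap, by little (log2 fold change -0.14 ± 0.27, SE; limma adjusted p = 0.836).

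Of 11 genes for ITIM phosphatases and other brakes, none was called after adjustment by limma, an unadjusted p under 0.05 was reached by 1 higher and 0 lower, 1 was higher and 1 lower without overlap, and the median log2 fold change was 0.04. That 1 was Ptpn6, which encodes SHP-1, at 71.8 and 30.5 FPKM in the controls and 104.2, 96.3 and 99.7 FPKM with G-CSF (log2 fold change 1.077 ± 0.42, SE; limma adjusted p = 0.384). Ptprc, Dok3 and Csk, the next by p, had log2 fold changes of 1.10 ± 0.70, -0.43 ± 0.29 and -0.47 ± 0.46 (SE; limma adjusted p = 0.519, 0.548 and 0.668). Dok3 was the gene lower without overlap. Ptprc, the leukocyte antigen CD45, measured 4.76 FPKM in control replicate 2 and 24.3 to 31.4 FPKM in the other 4 libraries.

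Of 11 tested genes for ligands, partners and sheddases, 0 were called by limma after adjustment, an unadjusted p under 0.05 was reached by 1 higher and 0 lower, 3 were higher and 0 lower without overlap, and the median log2 fold change was 0.46. The 1 was Adam17, a protease that sheds many surface proteins, TREM2 among them, at 12.5 and 9.23 FPKM in the controls and 32.8, 22.1 and 29.2 FPKM with G-CSF (log2 fold change 1.29 ± 0.29, SE; limma adjusted p = 0.258). All G-CSF libraries were above both controls. Pglyrp1, a neutrophil granule protein that binds TREM1, measured 95.1 and 17.6 FPKM in control replicates 1 and 2 and 71.6, 118 and 72.2 FPKM with G-CSF (limma adjusted p = 0.556), again with control replicate 2 lowest and G-CSF replicate 2 highest. For Actb, the actin gene and most abundant of the list, the estimate was 0.94 ± 0.57 on the log2 scale (SE; limma adjusted p = 0.508).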

How the data were processed

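Bulk RNA-seq of 5 bone marrow monocyte libraries was deposited by the authors as 1 table of FPKM with a column per library. Per the submitters' processing notes the genome build was mm10, and the only tool named is Cell Ranger 5.0.1, a single-cell tool. The aligner, counter, annotation and strandedness are not given in the sources used here. By symbol, 89.6% of the 33559 rows could be placed in GENCODE M21 (GRCm38). With its exon lengths, FPKM came out as whole reads (tolerance 0.01) in each library for 94.6% of the placed rows. All coordinates are those of GENCODE M21 or RefSeq, not the authors'.

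Groups came from the labels. The filter (1 FPKM or more in 2 or more libraries) kept 16791 genes. The test was limma-trend 3.58.1 under R 4.3.3 on log2(FPKM + 1), two-sided, with Benjamini-Hochberg adjustment and 3 residual degrees of freedom. A fold change on this scale is understated for low genes. Chi-square over degrees of freedom of recovered reads was 115 for the control pair and 7.88 to 46.5 for G-CSF pairs, far above sampling noise.

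The members, classes, lists and alternatives were chosen with earlier results of these data known. All 9 members were named. From each companion list the 4 genes with the smallest p and the most abundant one were named, except 2 that are not reported here (Syk and Itga2b were added after their values were seen), and the 3 genes nearest to Trem1, Cd300lf and Tyrobp, leaving out predicted genes, microRNAs, antigen receptor segments and -ps pseudogenes. Older symbols were matched through RefSeq synonyms. Alternatives were other pseudocounts (0.1 and 5), filters and scalings, limma without a trend or robust, a replicate block, each library left out, protein-coding genes only, and voom on recovered reads. Python 3.11.15 with numpy 2.4.6, pandas 2.3.3 and matplotlib 3.10.9 was used for the rest.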

Additional observations from a re-analysis of the deposited data

How the results depend on the processing

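Over all genes, limma called 1 gene higher and 0 lower (1327 and 800 at an unadjusted p under 0.05). It called 3 higher with a pseudocount of 0.1, 2 with a minimum of 5 FPKM or without a trend, 30 higher and 3 lower among protein-coding genes, and 3 higher and 2 lower by voom. The count of higher genes was 0 with a pseudocount of 5, no filter, quantile normalization, median centring or the replicate block. With 1 library left out it ranged from 0 to 2834 higher and 0 to 1977 lower, the highest without control replicate 1, where the lone control is assumed to vary like the treated libraries. Among the 9 genes, these fits called 0 to 3 higher and 0 to 2 lower; 1 to 4 were higher and 0 to 2 lower at an unadjusted p under 0.05, and likewise 1 to 4 and 0 to 2 without overlap. Each of these highest counts was reached without control replicate 1, a fit of 15983 genes that also called the most genes over the table. These counts therefore cannot be read as particular to the 9 genes. In the fits that kept both controls, 0 of the 9 were called after adjustment. The median log2 fold change of the activating receptors ranged from 0.22 to 1.38 over all the fits. Cd300ld stayed positive in all 16 alternatives, from 1.284 to 2.003, and passed adjustment in 1 of them, without control replicate 1 (adjusted p from 0.0113 to 0.874; 0.0921 among protein-coding genes).

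With 1 library left out, log2 fold changes ranged from -1.32 to 0.60 for Trem2, -1.08 to 1.03 for Trem3, -0.54 to 0.33 for Treml2, -1.67 to 0.99 for Tyrobp, -0.12 to 0.20 for Cd300a, -0.28 to 1.38 for Cd300lb and -0.39 to 0.14 for Cd300lf. That of Cd300a was -0.14 under quantile normalization, -0.0105 under median centring and -0.10 by voom. With the replicate block, values were 0.0735 for Trem3, 0.0109 for Treml2 and 0.0658 for Cd300lf, and no other result on the 9 genes changed its call. The replicate numbers were not shown to pair the samples: deviations from the group means correlated at -0.0706 between the replicates numbered 1 and -0.231 between those numbered 2, and G-CSF replicate 3 has no control of its number, so it adds nothing to that fit. Where a call or sign changed, the cause was not tested.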
